A study of Mus musculus with 3 samples.

Results

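Cells with Gata3 and Il7r transcripts and no detected Cd3, the profile of innate lymphoid cells, are described here in mouse ear skin, from 3 droplet single-cell RNA libraries. A barcode counted as a member when it had at least 500 genes, at least 1000 UMIs (unique molecular identifiers, each a captured transcript molecule) and at most 10% mitochondrial UMIs. It also had at least 1 UMI each of Gata3, Il7r and Ptprc (the pan-leukocyte antigen CD45), none of Cd3e, Cd3d, Cd3g, Trdv4 or Cd207, and under 0.1% of its UMIs from Krt5 and Krt14. This gave 141 members among 37961 kept barcodes of 40004 deposited. There were 28 members in the young wild-type library, 74 in the adult wild-type library and 39 in the adult Langerin-DTA library. The rule used measured values, so the levels of its own genes are descriptions and carry no test.

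The study set out to compare ear skin with and without Langerhans cells, the epidermal antigen-presenting cells, around the lymphatic vessels. Young wild-type mice were C57BL/6J at 4 weeks of age (5 males and 3 females pooled), adult wild-type mice were C57BL/6J at 8 weeks (6 males and 4 females pooled), and Langerin-DTA mice were 8 weeks old (4 males and 6 females pooled). Langerin-DTA mice carry a transgene in which regulatory sequence of the human Langerin gene drives the A chain of diphtheria toxin, which removes Langerhans cells. Their wild-type controls were littermates, and no group was treated. Lymphatic endothelial cells, blood endothelial cells, CD45-positive cells and cells negative for CD45 and CD31 were sorted and pooled in equal parts, so shares below are taken within immune cells. With 1 library per condition, age and genotype have no replicate, and their intervals cover counting error only. Pairs of libraries shared 47, 50 and 39 barcode sequences, none with identical counts and none of them a member.

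Innate lymphoid cells resemble helper T cells but lack a rearranged antigen receptor and its CD3 signalling complex. The type 2 subset depends on the transcription factor GATA3 and on interleukin 7, responds to the epithelial alarmins IL-33, IL-25 and TSLP and to IL-18, and secretes IL-5, IL-13 and amphiregulin. In skin these cells lie in the dermis and around hair follicles, where they take part in barrier repair and allergic inflammation.

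The cytokine genes Il13 and Il5 lie close together on chromosome 11, and their promoters are shown because the results below turn on Il13 and the rule on Gata3, whose protein binds GATA cores. Each sequence is the RefSeq 250 bases before the gene's start (GRCm38.p6), 5′ to 3′ on the gene's own strand. Il13 is on the minus strand at chr11:53634703-53634952 and Il5 on the plus strand at chr11:53720544-53720793. Capitals mark the core GATA, or TATC where it lies on the other strand.
Il13: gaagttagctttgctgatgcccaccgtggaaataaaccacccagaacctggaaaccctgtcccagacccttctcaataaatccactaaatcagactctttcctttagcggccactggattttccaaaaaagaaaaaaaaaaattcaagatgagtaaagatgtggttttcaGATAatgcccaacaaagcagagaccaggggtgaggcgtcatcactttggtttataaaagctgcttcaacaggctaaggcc
Il5: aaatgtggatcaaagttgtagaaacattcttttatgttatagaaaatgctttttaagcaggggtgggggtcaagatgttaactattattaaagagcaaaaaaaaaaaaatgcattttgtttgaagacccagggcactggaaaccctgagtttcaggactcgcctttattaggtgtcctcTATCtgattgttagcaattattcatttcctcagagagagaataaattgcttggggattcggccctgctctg
Each window held 1 core. Across all 32841 RefSeq promoter windows searched on both strands, 53.6% held GATA or TATC, so a match is a description of these letters and not a site.

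Several steps of the rule decided how many cells were kept. In the adult wild-type library 3351 barcodes had Gata3, 483 of them Il7r and 468 also Ptprc; requiring no Cd3 left 179, no Trdv4 92, no Cd207 75 and low keratin 74. The young library went from 181 cells with Gata3, Il7r and Ptprc to 59 without Cd3, 41 without Trdv4, 31 without Cd207 and 28 with low keratin. The Langerin-DTA library went from 187 to 78, 42, 42 and 39 at the same steps. Just inside the rule, 7, 5 and 8 members of the young, adult wild-type and Langerin-DTA libraries had a single Gata3 UMI. Just outside it, 6, 32 and 5 cells missed only by 1 Cd3 UMI.

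The label's marker was present in most members, and some T cell transcripts were present as well. Icos, a costimulatory receptor and the remaining marker of the label, had a UMI in 25 of 28, 64 of 74 and 37 of 39 members. Its level in the summed members was 555, 701 and 780 CPM (the UMIs of the gene scaled to 1000000 UMIs of the summed members) in the young, adult wild-type and Langerin-DTA libraries. Rora, a transcription factor required for type 2 innate lymphoid cells, stood at 2023, 2462 and 2527 CPM. T cell transcripts were low but present: the 13 other T cell genes listed, all outside the rule, summed to 521, 601 and 454 CPM, against 6603, 6022 and 6123 CPM in dendritic epidermal T cells, the gamma delta T cells of the epidermis. At least 1 receptor constant-region UMI was found in 25, 66 and 31 members, mainly Trbc1 (177, 196 and 151 CPM) and Trbc2 (218, 210 and 122 CPM), whereas Cd8a was at 0 in every library. Innate lymphoid cells and T cells with undetected Cd3 therefore cannot be told apart among the members, which are named below by the rule. Markers of eosinophils were at 0, and of 10 mast cell and basophil genes Kit accounted for most UMIs. Natural killer cell genes were scarce, with Eomes, Gzma, Gzmb and Ifng at 0 in all 3 libraries.

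Members made up 0.880% of immune cells in young wild-type ears (28 of 3183; exact binomial 95% interval 0.585% to 1.27%). The share was 2.56% in adult wild-type ears (74 of 2887; 2.02% to 3.21%) and 1.86% in adult Langerin-DTA ears (39 of 2099; 1.32% to 2.53%). With all immune cells as the denominator, the young interval lies below both adult intervals, and the intervals of the adult libraries overlap. Cd207, the Langerin gene itself, was without a UMI in 2536 of 3183, 2442 of 2887 and 2087 of 2099 immune cells, so few cells of the Langerin-DTA library carried it. With only those cells in the denominator, the shares were 1.10% (0.735% to 1.59%), 3.03% (2.39% to 3.79%) and 1.87% (1.33% to 2.55%). There the young and Langerin-DTA intervals overlap. When the rule was applied again to cells thinned to 3000 UMIs, which leaves out 0, 3 and 3 members as too shallow, the shares were 1.30%, 4.29% and 2.22%. Their intervals, at the mean counts of the draws, were 0.914% to 1.80%, 3.53% to 5.16% and 1.57% to 2.97%. At that depth the young and Langerin-DTA intervals overlap, and the adult intervals do not. The order turned among the 3, 8 and 8 members without a receptor constant UMI: they made up 0.0943% (0.0194% to 0.275%), 0.277% (0.120% to 0.545%) and 0.381% (0.165% to 0.750%) of immune cells, with overlapping intervals and the Langerin-DTA library highest. These 3, 8 and 8 members held 29735, 32995 and 40996 UMIs in sum. Absence of a UMI depends on depth, which was not matched for them. Median depth was 8014, 7141.5 and 6253 UMIs per member, and whether age or the sort sets the shares cannot be told apart with 1 library per condition.

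**Figure D1:**
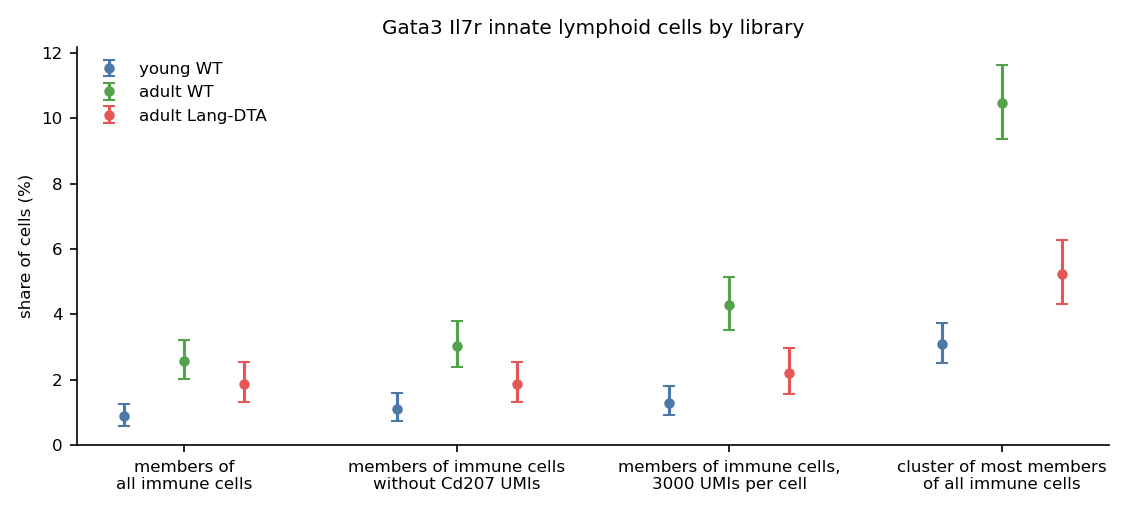
Share of cells (%, y axis) that met the rule in each library under 3 denominators or depths, and the share in the cluster that holds most members. Points are shares and bars exact binomial 95% intervals. Under each of the 4 readings shown the young library is lowest and the adult wild-type library highest, from 0.880% and 2.56% for the rule itself to 3.08% and 10.5% for the cluster; members without a receptor constant UMI, for which the Langerin-DTA share was highest (0.381%), are not drawn.

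The 7065 immune cells without a Cd207 UMI were clustered on 1500 variable genes. Genes of the member rule, T cell receptor genes and mitochondrial, ribosomal protein and sex-linked genes were barred from these. Clustering put 120 of the 141 members in 1 of 20 clusters, which held 510 cells. Of these, 254 cells had Trdv4, the variable segment used to mark dendritic epidermal T cells, 236 had a Cd3 UMI and 376 had either. The receptor transcripts in the 76, 239 and 75 cells of that cluster outside the rule were unequal. A Trdv4 or Cd3 UMI puts a cell outside the rule and a Trdc UMI does not, so these levels follow in part from the choice. Trdv4 stood at 89.4, 168 and 180 CPM and the delta constant region Trdc at 30.8, 20.9 and 21.4 CPM. In dendritic epidermal T cells, Trdv4 was 0.543, 0.886 and 0.904 times Trdc, whereas in the whole cluster it was 2.9, 7.25 and 7.6 times Trdc. Cd3g likewise stood at 268, 212 and 175 CPM in those cells and Cd3e at 29.3, 9.85 and 23.5 CPM. The ratio of Trdv4 to Trdc was thus several times that of the epidermal T cells in all 3 libraries, and the source of these UMIs was not tested. For the main genes that differed with age or genotype, the values of these cells are given beside those of the members. The members outside the cluster lay in clusters led by blood endothelial (5), lymphatic (1), fibroblast (4) or keratinocyte genes (2). Others lay in clusters led by Lyz1 and MHC class II genes (2), Cd8b1 (4) or Ctla4 (3). All of them were kept as members.

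**Figure D2:**
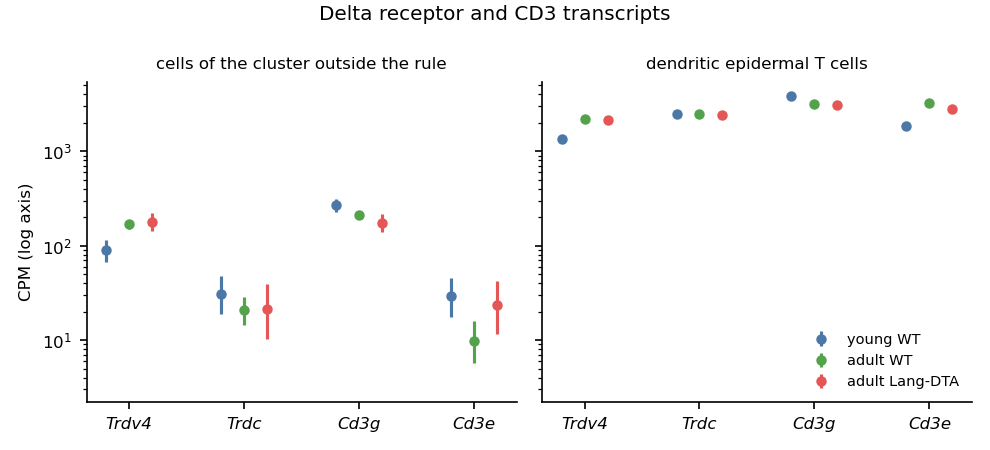
CPM (log axis) of 4 receptor transcripts by library, in cells of the members' cluster that failed the rule (left) and in dendritic epidermal T cells (right); bars are exact Poisson 95% intervals. Trdv4 exceeds Trdc on the left (168 against 20.9 CPM in adult wild-type ears) and does not exceed it on the right. The rule bars Trdv4 and Cd3 but not Trdc, so the left panel follows in part from the choice. Over the whole cluster Trdv4 was 7.25 times Trdc in adult wild-type ears.

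The alarmin receptors were not equally represented among the members. Il18r1, which encodes the IL-18 receptor chain, had a UMI in 26 of 28, 72 of 74 and 37 of 39 members, at 446, 757 and 691 CPM. Its partner Il18rap stood at 249, 244 and 262 CPM. Il1rl1, the IL-33 receptor, was found in 2, 5 and 3 members only, or 7.14%, 6.76% and 7.69%. Il17rb, the IL-25 receptor, was found in 21.4%, 25.7% and 28.2% of members, and Il18r1 without Il1rl1 or Il17rb in 93 of all 141 members (66.0%, exact binomial 95% interval 57.5% to 73.7%). In lymphatic endothelial cells, whose median depth was 7827, 5050 and 8995 UMIs, Il18r1 had a UMI in 0.113%, 0.104% and 0.177% of cells and Il17rb in 0.519%, 0.519% and 0.706%. Thinned to 3000 UMIs per cell, Il18r1 was found in 73.8%, 82.5% and 79.3% of members and Il17rb in 9.41%, 13.4% and 11.0%. Crlf2, the TSLP receptor, was found in 21.4%, 32.4% and 35.9% of members, and at 22.1%, 13.9% and 41.4% of lymphatic endothelial cells its share cannot be read as particular to the members. Il2ra, the high-affinity IL-2 receptor chain, stood at 245, 145 and 155 CPM.

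Among effector genes, Areg was found in most members and Il13 in a share that differed between libraries. Areg, encoding amphiregulin, stood at 565, 562 and 587 CPM and was found in 71.4%, 56.8% and 76.9% of members. Il13, encoding a cytokine of type 2 inflammation, stood at 23.8, 138 and 314 CPM (7, 81 and 85 UMIs), and was found in 17.9%, 36.5% and 56.4% of members. Thinned, the Il13 shares were 6.19%, 24.7% and 41.1%, against 0.0452%, 0% and 0% unthinned in lymphatic endothelial cells. Il5 gave 16, 11 and 10 UMIs in 4, 10 and 5 members and Il4 gave 6, 6 and 8 UMIs, too few to order the libraries. Il2 stood at 64.7, 58.1 and 14.8 CPM. Il22, Il17f and Ifng were at 0, and Il17a gave at most 1 UMI per library. Members with any of Il4, Il5 or Il13 were 25%, 48.6% and 56.4%, and members with Areg but none of those 3 were 53.6%, 25.7% and 30.8%. Across all members, Areg was found in 74.1% of the 54 cells with Il13 and in 59.8% of the 87 without it; these shares are a description, since cells of a library are not replicates and their depth was not matched.

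Residency and migration genes completed the profile. Itgae, the CD103 integrin chain that binds E-cadherin, stood at 518, 434 and 565 CPM. The chemokine receptor genes Cxcr6 (249, 261 and 259 CPM) and Ccr8 (133, 99.1 and 137 CPM) had overlapping Poisson intervals in the 3 libraries. Ccr6, the CCL20 receptor, was 78.3, 154 and 255 CPM and was found in 28.6%, 52.7% and 71.8% of members. Gpr183, a receptor for oxysterols, stood at 344, 482 and 539 CPM. Arg1, Klrg1 and Nmur1, used to mark type 2 innate lymphoid cells of other organs, were sparse at no more than 33.3, 10.2 and 10.2 CPM in any library.

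**Figure D3:**
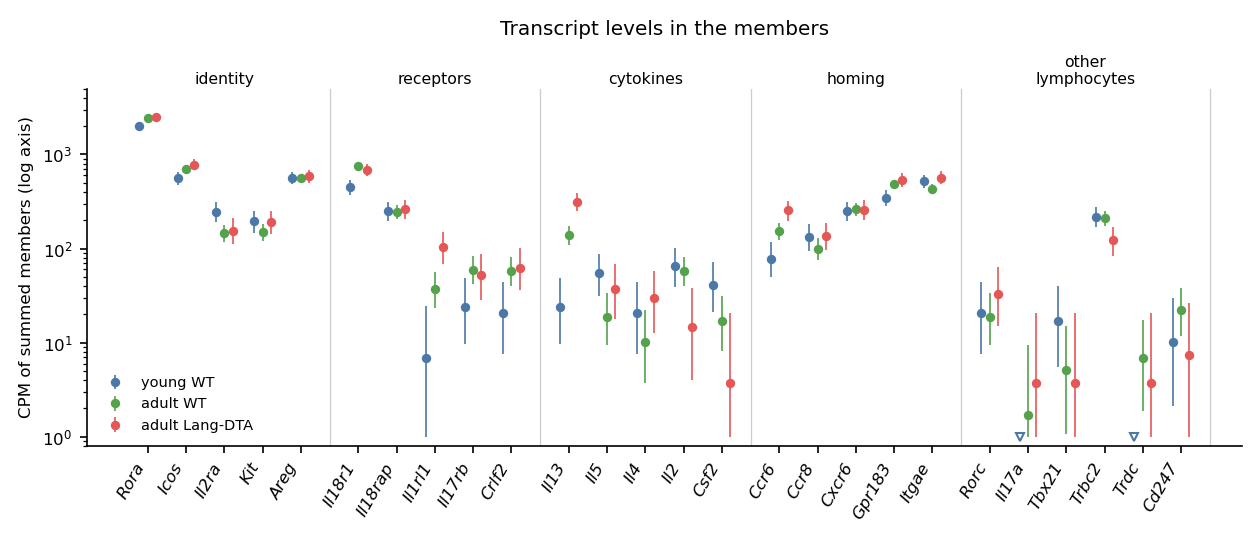
CPM of the summed members (log axis) for 26 genes grouped by role, 1 colour per library; bars are exact Poisson 95% intervals, cover counting error only and are cut at 1 CPM, and open triangles mark genes without a UMI. Rora, Icos, Il18r1 and Areg are high in every library, Il13 and Ccr6 step up from young wild-type to adult wild-type to Langerin-DTA ears, and Il17a stays at or near 0.

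Members were next set against 3 T cell classes of the same libraries: dendritic epidermal T cells (Cd3 and Trdv4; 4312 cells), Il23r dermal T cells (Cd3 and Il23r without Trdv4; 160 cells) and Ccl5 alpha beta T cells (Cd3, Trac and Ccl5; 206 cells). Counts were summed per class and library, and the 3 libraries served as replicates in edgeR's quasi-likelihood test with a library term and Benjamini-Hochberg adjustment over 7991 genes. Against dendritic epidermal T cells 915 genes (11.5%) were higher in the members and 1122 (14.0%) lower. Against Il23r dermal T cells the numbers were 105 (1.31%) and 137 (1.71%), and against Ccl5 alpha beta T cells 463 (5.79%) and 327 (4.09%). Without the adult wild-type library the called genes numbered 1114, 46 and 173 in the 3 contrasts, and without the Langerin-DTA library 1299, 52 and 267. With only the 3, 8 and 8 members that had no receptor constant UMI they numbered 885, 53 and 194. In all 3 contrasts together 40 genes (0.501%) were higher and 21 (0.263%) lower. Genes of the class rules stayed in the fit and were not taken out of these counts. Any calls for them follow from the choice of cells.

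The genes higher than in every T cell class included signalling and adhesion genes. Igsf5, an immunoglobulin superfamily gene on the plus strand at chr16:96361668-96422121 (GRCm38), where another gene model of that name overlaps it, stood at 371, 328 and 296 CPM in the members and at no more than 20.5 CPM in any sum of the T cell classes. Its log2 fold change was 4.77 ± 0.37 (SE, n = 3 libraries per class) against dendritic epidermal T cells, with an edgeR adjusted p of 1.25e-05. Against Il23r dermal and Ccl5 alpha beta T cells it was 4.58 ± 0.48 and 5.80 ± 0.53. Igsf5 also stood at 330 CPM over all 510 cells of the members' cluster, so within that cluster its level does not mark the members. Nt5e and Amph, named below, were also among the genes that led that cluster over the others. The dendritic epidermal T cells tested included 114 cells of that cluster. Pde7b, a phosphodiesterase that degrades cyclic AMP, stood at 371, 265 and 273 CPM in members and was higher by 4.31, 5.81 and 4.93 on the log2 scale. Dach2, a transcriptional cofactor, was higher by 3.28, 4.84 and 5.01 and Ptpn13, a tyrosine phosphatase, by 1.58, 2.80 and 2.54. These 4 of the 15 named higher genes passed the edgeR test in all 3 contrasts when any 1 library was left out. Among members without a receptor constant UMI, Ptpn13 stood at 0.80 on the log2 scale against dendritic epidermal T cells (edgeR adjusted p = 0.133), and Dach2 was too sparse to be tested.

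The other 11 named higher genes had the same direction in every fit and lost at least 1 call without a library. Bmp2, a secreted TGF-beta family ligand, stood at 123, 152 and 181 CPM in the members and was higher by 4.40, 4.80 and 7.24 on the log2 scale, with a call lost without the Langerin-DTA library (edgeR adjusted p = 0.0656). Kit, the stem cell factor receptor, stood at 194, 149 and 192 CPM and was higher by 1.86, 6.19 and 4.53, with calls lost without the Langerin-DTA library (largest adjusted p = 0.112). Nt5e, the ectoenzyme CD73 that makes adenosine, was higher by 3.77, 2.38 and 2.21, with calls lost without the young or the Langerin-DTA library (largest adjusted p = 0.117). Cd200r1, an inhibitory receptor, was higher by 4.22, 4.19 and 2.33, with calls lost without either adult library (largest adjusted p = 0.156). The remaining 7 also lost calls. Without 1 or both adult libraries, the largest adjusted p was 0.172 for Amph, 0.24 for Pard3, 0.148 for Plxdc2, 0.0625 for Chn2 and 0.0664 for Eepd1. Ube2e2 and Slc38a6 lost calls without each library in turn (largest adjusted p 0.21 and 0.308).

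Since the rule bars Cd3 in the members and requires it in the T cell classes, lower T cell genes follow the choice and are given without a test. Cd247, the CD3 zeta chain, stood at 10.2, 22.2 and 7.39 CPM in members and between 222 and 2037 CPM in the sums of the T cell classes. Themis, a T cell signalling protein, stood at 0, 18.8 and 3.69 CPM in members and at no less than 103 CPM in the T cell sums. The gamma chain genes Tcrg-C2 and Trgv2 had 1 UMI each in the members of all libraries together.

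**Figure D4:**
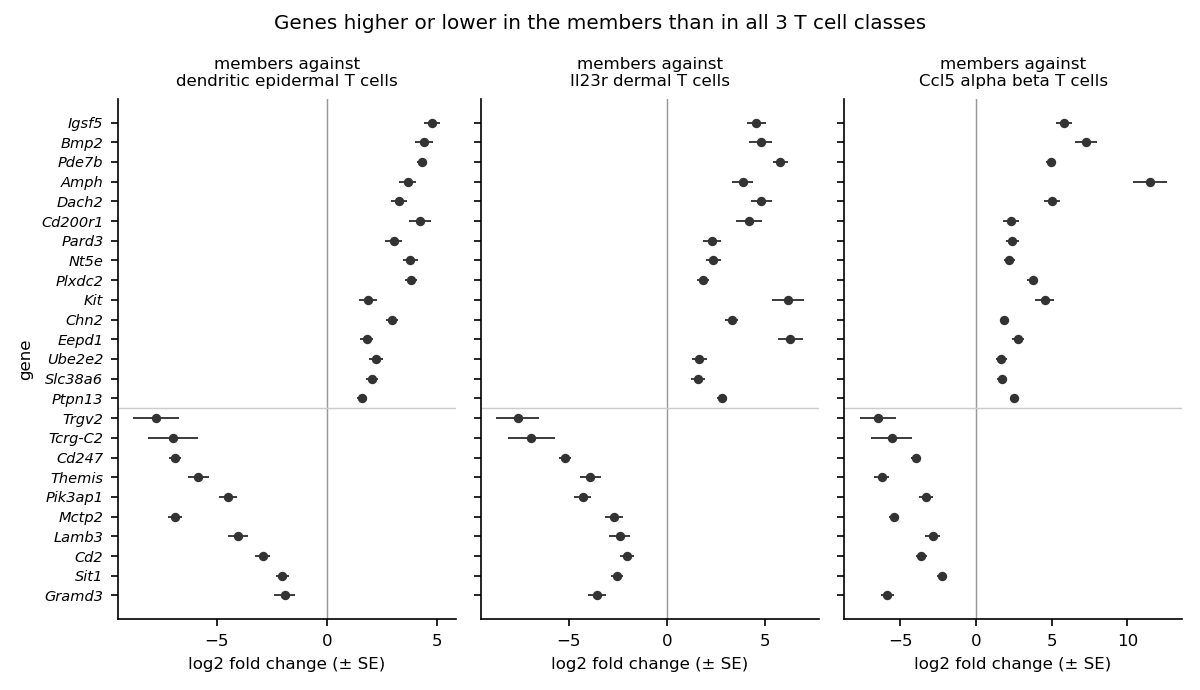
Log2 fold change (x axis; bars are SE, n = 3 libraries per class) of members against each of 3 T cell classes, for the 15 higher and 10 lower genes named by rank. Igsf5, Pde7b, Dach2 and Ptpn13 lie to the right of 0 in all 3 panels, and the T cell gene Cd247 lies to the left. Of the 10 lower genes, only 1 (Cd247) kept its calls when any 1 library was left out. Lower T cell genes follow from the choice of cells. The x axes differ between panels.

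By role, most receptor genes differed between the members and the epidermal T cells. Of 23 tested alarmin, cytokine and neuropeptide receptor genes, 15 were higher and 4 lower than in dendritic epidermal T cells (median log2 fold change 1.40, all genes 0.01), 2 higher and 2 lower than in Il23r dermal T cells (median −0.23, all genes −0.01), and 8 higher and none lower than in Ccl5 alpha beta T cells (median 0.82, all genes 0.01). Il18r1 was higher than in dendritic epidermal T cells by 2.15 ± 0.21 (edgeR adjusted p = 3.33e-05), and its difference of −0.23 ± 0.21 from Il23r dermal T cells did not pass (adjusted p = 0.671). Its call against Ccl5 alpha beta T cells (0.91 ± 0.21) was lost without either adult library (adjusted p = 0.137), without the library term (0.0797) and in members without a receptor constant UMI (0.127). Il1rl1 was called only against dendritic epidermal T cells (4.42 ± 1.0, edgeR adjusted p = 0.00746), a call lost without the Langerin-DTA (0.127) or the adult wild-type library (0.0573). Of 22 transcription factor genes, 10, 1 and 9 were higher and 3, 2 and 4 lower in the 3 contrasts. Among all genes tested, 11.5%, 1.31% and 5.79% were higher and 14.0%, 1.71% and 4.09% lower. The median log2 fold change of the 22 genes was 0.41, −0.34 and 0.41. Rora was higher by 3.66 ± 0.22 (adjusted p = 2.85e-06) than in dendritic epidermal T cells and by 1.72 ± 0.21 (adjusted p = 0.00055) than in Ccl5 alpha beta T cells. Bach2, a repressor of effector programmes, was higher in all 3 contrasts by 0.86, 0.84 and 1.65, and its call against Il23r dermal T cells was lost without the Langerin-DTA (edgeR adjusted p = 0.196) or the adult wild-type library (0.165). In members without a receptor constant UMI, Bach2 also lost its calls against dendritic epidermal (adjusted p = 0.186) and Il23r dermal T cells (0.331).

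Of 20 tested homing genes, 12 were higher and 1 lower than in dendritic epidermal T cells, none higher and 3 lower than in Il23r dermal T cells, and 3 higher and 2 lower than in Ccl5 alpha beta T cells. Among all genes tested, 11.5%, 1.31% and 5.79% were higher and 14.0%, 1.71% and 4.09% lower in the same contrasts. Ccr6 was higher by 3.94 ± 0.46 (edgeR adjusted p = 0.000109) and by 4.11 ± 0.63 (adjusted p = 0.00259) than in the epidermal and the alpha beta T cells, and Gpr183 by 3.52 ± 0.25 and 1.79 ± 0.25. Against the alpha beta T cells both calls were lost in members without a receptor constant UMI, where Ccr6 stood at 3.41 (adjusted p = 0.102) and Gpr183 at 0.44 (adjusted p = 0.578). Icos, which the rule did not use, was higher than in dendritic epidermal T cells by 3.84 ± 0.36 (adjusted p = 2.91e-05) and did not pass against the other 2 classes (−0.02 and 0.18). Of 12 tested type 17 genes, 4, 0 and 4 were higher and 2, 4 and 0 lower. Those lower than in Il23r dermal T cells were Il1r1, Il17a, Il17f and Blk. That class was chosen by Il23r, itself a type 17 gene, so these lower genes follow in part from the choice. The Il17a call was lost without each library in turn (adjusted p 0.053 to 0.244).

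Among type 2 effector genes, Areg did not separate members from the epidermal T cells. Areg stood at 897, 1188 and 973 CPM there, a difference of −0.91 ± 0.35 on the log2 scale that did not pass (edgeR adjusted p = 0.0839) but passed without the young library (0.00153) or without a filter on low counts (0.000801). Areg was higher in members than in Ccl5 alpha beta T cells by 4.00 ± 0.45 (adjusted p = 0.000411). Il13 stood at 40.5, 80.2 and 61.3 CPM in dendritic epidermal T cells, a difference of 0.95 ± 0.47 that did not pass (adjusted p = 0.18) but passed without the young library (0.021) or without called doublets (0.0354). Against Il23r dermal T cells Il13 was higher by 5.25 ± 0.83 (adjusted p = 0.00741), a call lost without the Langerin-DTA (0.0704) or the adult wild-type library (0.138). Furin, a proprotein convertase gene, was higher than in dendritic epidermal and Ccl5 alpha beta T cells by 1.62 ± 0.27 and 3.72 ± 0.32. The MHC class I pathway split by class: of 11 genes, 6 were higher than in dendritic epidermal T cells and 9 lower than in Ccl5 alpha beta T cells, the latter including B2m and H2-K1. The median log2 fold changes of the 11 genes were 0.74 and −0.95, with all genes at 0.01 in both contrasts. Against Il23r dermal T cells none was higher and 1 (Nlrc5) was lower, with a median of −0.15 and all genes at −0.01. H2-K1 lost its call against Ccl5 alpha beta T cells without the Langerin-DTA (adjusted p = 0.0522) or the adult wild-type library (0.0792), and in members without a receptor constant UMI (0.0526). None of 17 tested proliferation genes was called against dendritic epidermal or Il23r dermal T cells, and 4 (Mcm6, Birc5, Tyms and Hmgb2) were lower than in Ccl5 alpha beta T cells (median −1.16, all genes 0.01). Beside these counts, 11.5% of all genes tested were higher and 14.0% lower than in dendritic epidermal T cells. The shares were 1.31% and 1.71% against Il23r dermal T cells, and 5.79% and 4.09% against Ccl5 alpha beta T cells, as for all genes above.

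For age, adult wild-type members were compared with young wild-type members. Among 5145 genes with at least 30 UMIs over both libraries, 395 (7.68%) were at least 2-fold higher in the adult library and 204 (3.97%) at least 2-fold lower, with a median log2 ratio of 0.03. Many of the genes furthest from 1 rested on single cells with transcripts of another lineage: 95.1% of the adult Col8a1 UMIs came from 1 cell, and H2-Aa, an MHC class II gene, came from 4 young cells. Fibroblast marker genes summed to 10.2 CPM in young and 1242 CPM in adult wild-type members, and myeloid markers to 4499 and 126 CPM. Without the 3 young and 5 adult members that had 0.5% or more UMIs of another lineage, 322 genes were higher and 141 lower of 4456. Genes present in at least 25% of the members of the higher library gave 240 higher (5.19%) and 130 lower (2.81%) of 4623, and the genes described next are of that kind unless said otherwise.

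Il13 showed the largest age ratio among the effector genes measured. It went from 23.8 to 138 CPM, a log2 ratio of 2.54 (exact conditional 95% interval 1.43 to 3.90), and the 7 young UMIs came from 5 cells. In the cluster cells outside the rule it went from 97.1 to 308 CPM (1.66; 1.28 to 2.06), and in dendritic epidermal T cells outside the cluster from 39.5 to 64.2 CPM (0.70; 0.54 to 0.86). Furin went from 433 to 902 CPM in members (1.06; 0.78 to 1.35), from 730 to 1312 CPM in the other cluster cells, and from 223 to 244 CPM in dendritic epidermal T cells. Areg was 565 and 562 CPM (−0.01; −0.28 to 0.27), so a 2-fold age difference in Areg lies outside its counting interval. Of 8 measured type 2 effector genes, Il13 and Furin were at least 2-fold higher in adults and none was lower, beside 7.68% and 3.97% of all genes measured. The median log2 ratio of these 8 genes was 0.03, the same as over all genes measured, so the list as a whole did not shift.

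Btg1, Il31ra and Sox4 had age ratios of the same sign in the members, the other cluster cells and all kept cells. Btg1, an antiproliferative gene, went from 671 to 2194 CPM in members (1.71; 1.49 to 1.93), from 925 to 2616 CPM in the other cluster cells and from 383 to 1146 CPM over all kept cells. Il31ra, the IL-31 receptor chain, went from 272 to 46.1 CPM (−2.56; −3.25 to −1.92) in members, from 418 to 38.8 CPM in the other cluster cells and from 355 to 73.5 CPM over all kept cells. Sox4, a transcription factor, went from 106 to 10.3 CPM (−3.36; −4.92 to −2.08), from 37.0 to 11.0 CPM in the other cluster cells and from 103 to 33.5 CPM over all kept cells. Other genes differed less outside the members. Hip1, an endocytic adaptor gene, went from 44.3 to 231 CPM (2.38; 1.56 to 3.33) in members, from 146 to 237 CPM in the other cluster cells, and from 236 to 256 CPM over all kept cells. Lmbr1, with 1 young and 30 adult UMIs, had a ratio of 3.91 (1.32 to 9.26) in members and −0.02 (−0.76 to 0.76) over the whole cluster. Dtnb, a dystrobrevin gene, had a ratio of 2.59 (1.29 to 4.26) in members and −0.04 (−0.44 to 0.37) over the whole cluster.

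Of 21 measured receptor genes, Il17rb and Crlf2 were at least 2-fold higher in adults and none lower, beside 7.68% and 3.97% of all genes measured. Il17rb went from 23.8 to 59.8 CPM (1.33; 0.14 to 2.74), but over the whole cluster its log2 ratio was −0.13. Il18r1 went from 446 to 757 CPM (0.76; 0.48 to 1.06), and from 891 to 793 CPM in the other cluster cells. Klf2, which promotes exit from tissue and was found in 33.8% of adult members, had a log2 ratio of 1.33 (0.85 to 1.85), but −0.08 without called doublets and −0.29 in female-called members. None of 9 measured MHC class I genes, 6 costimulation genes or 18 transcription factor genes was at least 2-fold higher, and 0, 0 and 1 were at least 2-fold lower.

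For genotype, Langerin-DTA members were compared with the same adult wild-type members, so both comparisons share that library. Among 5009 measured genes 92 (1.84%) were at least 2-fold higher and 252 (5.03%) at least 2-fold lower in the Langerin-DTA library, with a median log2 ratio of −0.02. Among 4356 genes present in at least 25% of the members of the higher library, 57 (1.31%) were higher and 143 (3.28%) lower. Keratinocyte markers summed to 871 CPM in adult wild-type and 66.5 CPM in Langerin-DTA members, with 91.0% of the former in 1 cell, and fibroblast markers to 1242 and 362 CPM. Without the 5 adult wild-type members and 1 Langerin-DTA member that had 0.5% or more UMIs of another lineage, 95 genes were higher and 183 lower of 4603.

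Il13 was again the effector gene that differed in many cells. It stood at 138 CPM in adult wild-type and 314 CPM in Langerin-DTA members, a log2 ratio of 1.18 (0.73 to 1.64), with 81 UMIs in 27 cells and 85 UMIs in 22 cells; 28.2% of the Langerin-DTA UMIs came from 1 cell. In the other cluster cells it went from 308 to 526 CPM (0.77; 0.55 to 0.99), and in dendritic epidermal T cells from 64.2 to 50.4 CPM (−0.35; −0.52 to −0.18). Among members assigned a sex by their sex-linked transcripts, the Il13 ratio was 1.83 in male-called and 1.09 in female-called members. Areg had a ratio of 0.06 (−0.22 to 0.34) in members and 0.94 (0.78 to 1.09) in the other cluster cells. Il2 went from 58.1 to 14.8 CPM (−1.97; −3.93 to −0.49), from 34 UMIs to 4, and from 61.4 to 47.0 CPM in the other cluster cells (−0.39; −1.12 to 0.29). Ccl1, a chemokine that binds CCR8, and the IL-33 receptor gene Il1rl1 had ratios of 1.64 and 1.46 in members, but their Langerin-DTA UMIs came from 4 and 3 cells.

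Palld and Cd7 had ratios of the same sign in the members and the rest of the cluster, and ratios near 0 in the epidermal T cells. Palld, an actin-binding scaffold gene, stood at 44.3, 54.7 and 211 CPM in young, adult wild-type and Langerin-DTA members, with a genotype log2 ratio of 1.95 (1.30 to 2.62). In the other cluster cells it stood at 107 CPM in adult wild-type and 434 CPM in Langerin-DTA ears (2.02; 1.72 to 2.31), and the log2 ratio in dendritic epidermal T cells was −0.08 (−0.46 to 0.30). Cd7, a lymphocyte surface receptor, stood at 34.1, 106 and 18.5 CPM in members; its genotype ratio was −2.52 (−4.19 to −1.22), and −1.87 (−2.85 to −1.03) in the other cluster cells. In dendritic epidermal T cells Cd7 stood at 1392 and 1388 CPM. Fyb, an adaptor of antigen receptor signalling, went from 249 to 48.0 CPM in members (−2.38; −3.32 to −1.56), but from 232 to 186 CPM in the other cluster cells. Tcf7, a transcription factor of early lymphoid cells, went from 188 to 85.0 CPM (−1.15; −1.86 to −0.49) in members and from 192 to 162 CPM in the other cluster cells.

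**Figure D5:**
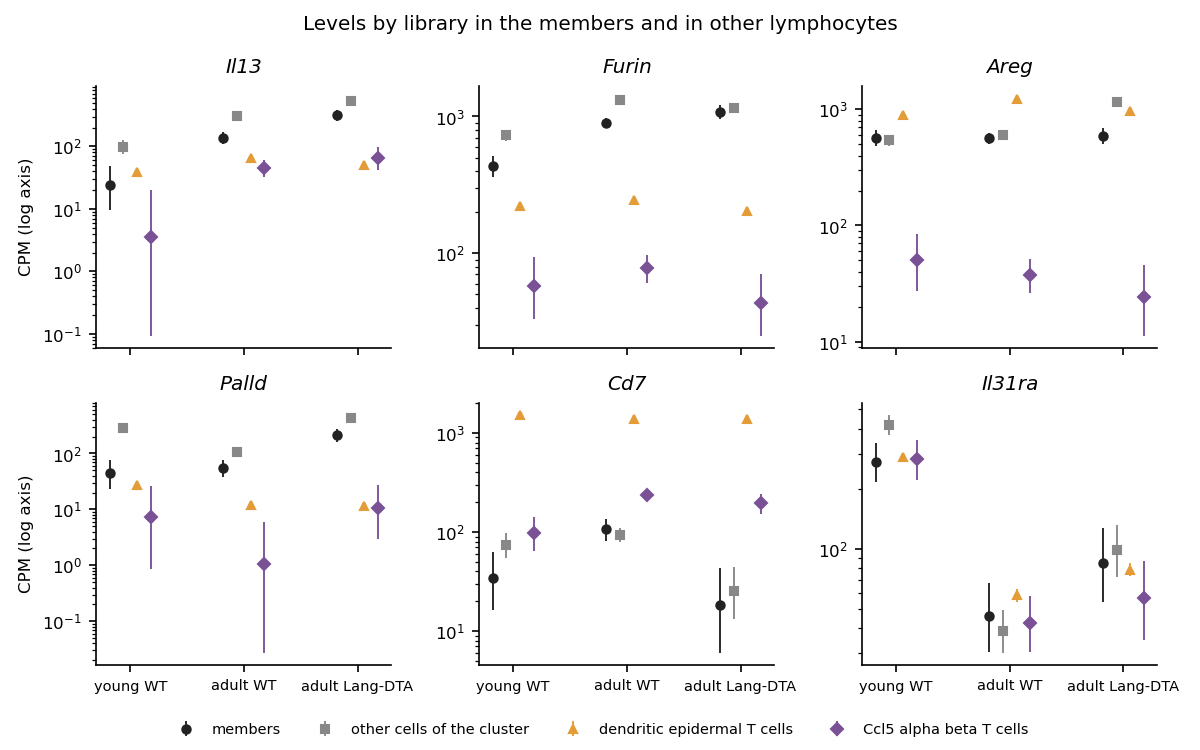
CPM (log axis, scale set per panel) of 6 genes by library in the members, the other cells of their cluster, dendritic epidermal T cells and Ccl5 alpha beta T cells, the last 2 without cells of that cluster; bars are exact Poisson 95% intervals. Il13 steps up over the 3 libraries in members and in the other cluster cells, Palld is higher and Cd7 lower in those 2 sets in Langerin-DTA than in adult wild-type ears, and Il31ra is lower in adult than in young wild-type ears in all 4 sets.

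In each of the lists given next, up to 3 genes passed 2-fold between the genotypes in a direction, beside 1.84% higher and 5.03% lower among all genes measured. Of 21 measured receptor genes, Il1rl1 was at least 2-fold higher and none lower; of 18 NF-kB and survival genes none passed in either direction; of 9 MHC class I genes only Nlrc5 was lower. Of 15 homing genes, Ccr2, S1pr1 and Itga4 were at least 2-fold lower and none higher. Ccr6 stood below the 2-fold line, at 154 and 255 CPM (0.73; 0.26 to 1.20), and at 240 and 284 CPM in the other cluster cells. Of 18 transcription factor genes, Irf4 was higher (20.5 and 77.6 CPM, with 52.4% of the Langerin-DTA UMIs in 1 cell) and Tcf7 and Batf were lower.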

How the data were processed

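Ear skin cells of 3 pooled groups of mice were captured with 10x 3' v4 chemistry, per the labels' protocols. The authors deposited raw UMI counts per gene and barcode for each library, made with Cell Ranger 8.01 on GRCm38, per the submitters' processing notes; the file headers give 8.0.1. Libraries held 137441575, 128595813 and 124590777 UMIs, and the members 293607, 585252 and 270647.

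Members, T cell classes and gene lists were chosen with earlier results of these data known. Named genes beyond the lists were the first 15 higher and 10 lower in all 3 class contrasts by the smallest fold change, and the first 10 per direction for age and genotype by interval limit. Genes present in at least 25% of members, and some others named for their levels, were chosen after their values were seen. Whether animals or cells differ cannot be separated, because each library is a pool; p-values measure only the spread between 3 libraries that also differ in age and genotype.

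Counts were summed per class and library and tested with edgeR 4.0.16 (TMM, filterByExpr, quasi-likelihood, library term, adjusted p threshold 0.05) in R 4.3.3; DESeq2 1.42.0 was an alternative. Within members, CPM ratios carry exact conditional 95% intervals, shares Clopper-Pearson intervals, and levels exact Poisson intervals (scipy 1.17.1), all for counting error only. Lymphatic endothelial cells had Prox1 and no Ptprc. Thinning used 3000 UMIs and 20 draws. Clusters came from leidenalg 0.10.2 (1500 genes, 30 components, 15 neighbours, resolution 1). Simulated doublets led to calls of 5.28%, 5.62% and 5.61% of kept barcodes; the 1, 9 and 3 members called were kept and left out in an alternative. Members with 0.5% or more UMIs of another lineage (3, 5 and 1) were kept likewise. Male-called and female-called members were assigned from sex-linked transcripts. The scripts were tested on simulated data. Positions in other builds were not used.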

Additional observations from a re-analysis of the deposited data

How the results depend on the processing

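No paired analysis was possible because each condition has 1 library; this holds for age and genotype. The class contrasts compare sums within each library through a library term, and without it the called genes numbered 1946, 250 and 726. Some alternatives were chosen after seeing the data: leaving out cells of other lineages, using the whole cluster, and requiring a UMI in 25% of members. The share of members was 0.226%, 0.586% and 0.301% of kept barcodes in young wild-type, adult wild-type and Langerin-DTA ears, and 0.0943%, 0.277% and 0.381% of immune cells without T cell receptor constant UMIs. The cluster gave 3.08%, 10.5% and 5.24%, or 3.86%, 12.4% and 5.27% without Cd207-bearing cells. Thinning gave 1.30%, 4.29% and 2.22%. Genes past 2-fold with age numbered 599, and 1296 at 15 UMIs, 223 at 60 UMIs, 343 without doublets, 115 without receptor constant UMIs, 208 and 394 in male-called and female-called members, and 370 in 25% of members. For genotype the count was 344, and 889, 93, 203, 59, 131, 219 and 200 under the same settings. Called genes against dendritic epidermal T cells numbered 2037, and 885 without receptor constant UMIs, 3398 for the cluster, and 1114 to 1893 with a library left out. Against Il23r dermal T cells they numbered 242, and 386 with DESeq2, 459 without a filter on low counts, 410 without doublets, 53 without receptor constant UMIs, 749 for the cluster, and 46 to 170 with a library left out. Against Ccl5 alpha beta T cells they numbered 790, and 194, 1728, and 173 to 748 for the receptor, cluster and left-out settings. Among the fits with a library left out, the fewest calls came without the adult wild-type library, in each contrast. Age ratios that turned were Klf2 (−0.075 without doublets, −0.29 female-called), Cd74 (1.11 without other lineages, 1.17 for the cluster), Abi3bp (−2.66) and Il17rb (−0.13), both for the cluster. Genotype ratios that turned were Nt5e (−0.25 male-called), Mgp (−3.00 without other lineages) and, for the cluster, Stmn1 (−0.63), Atad5 (−0.56) and Krt10 (0.60). The cause was not tested. DESeq2 left some adjusted p-values as NA, which stayed out of the counts. With 28 young members, a gene under 3 UMIs (10.2 CPM) cannot be told from 0.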

Other observations

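Surface and signalling genes of the tumour necrosis factor and immediate early families were also measured in the members. Of 18 tested NF-kB and survival genes, 11 were higher and 2 lower than in dendritic epidermal T cells, none higher and 4 lower than in Il23r dermal T cells, and 7 higher and none lower than in Ccl5 alpha beta T cells (edgeR). Of 20 tested immediate early and heat shock genes, 6, 0 and 10 were higher and 2, 0 and 0 lower. Fos, an early transcription factor gene, was among the 10 higher than in Ccl5 alpha beta T cells, a call lost in members without a receptor constant UMI (edgeR adjusted p = 0.388). Tnf, the inflammatory cytokine gene, stood at 44.3, 46.1 and 51.7 CPM in members, and Tnfsf11, the RANK ligand gene, at 44.3, 42.7 and 33.3 CPM; both were lower than in dendritic epidermal and Il23r dermal T cells. Of 13 tested interferon response genes, 1 was higher and 2 lower than in dendritic epidermal T cells, and 4 were lower than in Ccl5 alpha beta T cells. Among all genes tested, 11.5% were higher and 14.0% lower than in dendritic epidermal T cells, so the interferon counts there lie near those shares. The shares were 1.31% and 1.71% against Il23r dermal T cells, and 5.79% and 4.09% against Ccl5 alpha beta T cells.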
